A study of Homo sapiens with 6 samples.

Results

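SLC7A7 and 9 further amino acid transporter genes were followed on microarrays of 3 oral squamous cell carcinoma (OSCC) cell lines after knockdown of the long noncoding RNA DLEU1. The genes are SLC7A1, SLC7A2, SLC7A5, SLC7A6, SLC7A7, SLC7A8, SLC7A11, SLC3A2, SLC1A5, and SLC38A2, and every probe that the scanner files give 1 of these names was taken. That made 12 probes of the 50599 on the array, for 10 of its 36337 gene names. The set was selected on the rise of SLC7A7, which had the highest mean log2 fold change among the probes called with a gene symbol, so the values of SLC7A7 are a description and carry no test. The other genes were added for their function, with earlier results of these data known. HSC-3, KON, and Ca9-22 are established OSCC lines. Each was transfected with siDLEU1-2, a small interfering RNA (siRNA) against DLEU1, or with a control siRNA (siCtrl), and RNA was collected after 72 h. Each line and siRNA gave 1 array, so the 3 lines are the replicates and 1 siRNA stands for the knockdown. A p-value for the siRNA therefore measures the spread of its effect between lines. RNA came from whole cultures, so more cells with a transcript and more transcript per cell cannot be told apart.

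Amino acids cross the plasma membrane through families of carriers that differ in the charge and size of what they carry. SLC7A7, SLC7A6, SLC7A5, SLC7A8, and SLC7A11 encode light chains, which reach the cell surface as dimers with the heavy chain SLC3A2. The SLC7A7 and SLC7A6 dimers release cationic amino acids such as arginine and lysine in exchange for neutral ones, and loss of SLC7A7 causes lysinuric protein intolerance, a disorder of kidney, intestine, and macrophages. SLC7A5 and SLC7A8 exchange large neutral amino acids such as leucine, and SLC7A11 takes up cystine in exchange for glutamate. SLC7A1 and SLC7A2 carry cationic amino acids without a heavy chain, while SLC1A5 and SLC38A2 take up glutamine and other small neutral amino acids.

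The strands of siDLEU1-2 are shown because the knockdown on 3 of the 6 arrays rests on this single reagent. Capitals mark bases 2 to 8 of the antisense strand, the seed, and the matching stretch of the sense strand, which has the letters of an RNA that the seed could pair with.
siDLEU1-2 antisense: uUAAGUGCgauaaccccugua
siDLEU1-2 sense: cagggguuaucGCACUUAagc
As DNA letters that heptamer reads GCACTTA. It was found in none of the 12 transporter probes and in 138 of all 50599 probes (0.273%), which are 60 bases long and cover only a small stretch of each transcript.

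Levels are log2 processed signals, in which 0 is the 75th percentile of the array. That percentile lay at a processed signal of 201 to 257, and between 43.0% and 45.7% of the probes of an array were well above background by the scanner software. Tests were limited to the 19956 probes well above background on at least 1 array of every line. Among the transporters, 11 of 12 probes passed this filter, and the second SLC7A8 probe did not. A level is compared only between arrays, since the brightness of different probes does not give the order of their transcripts. DLEU1 had a log2 level of 1.39, 2.15, and 1.56 after siCtrl in HSC-3, KON, and Ca9-22, and of -2.71, -1.48, and -1.88 after siDLEU1-2. The groups did not overlap, and the mean log2 fold change was -3.72 ± 0.34 (SD, n = 3 cell lines; limma, adjusted p = 0.0227). That call was lost without HSC-3 (adjusted p = 0.0807) or without KON (adjusted p = 0.106). Keratins and other squamous epithelial markers were well above background on all 6 arrays for 10 of 11 genes, with a summed log2 level of 9.06 to 10.86 after siCtrl and 8.88 to 10.18 after siDLEU1-2. Of 9 leukocyte and macrophage markers with a probe, CD14, CSF1R, FCER1G, and TYROBP were well above background on all arrays and CD163 and SPI1 on none. Their summed log2 level was 1.93 to 5.73 after siCtrl and 1.82 to 6.11 after siDLEU1-2. Of 7 fibroblast markers, 5 were well above background on no array and COL1A1 on all 6. The summed fibroblast level was -0.35 to -0.089 after siCtrl and 0.825 to 1.57 after siDLEU1-2. That sum is mostly COL1A1, which read -0.65, -0.30, and -0.34 after siCtrl in HSC-3, KON, and Ca9-22, and 1.43, 1.02, and 0.62 after siDLEU1-2, and its part in the results was not tested.

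SLC7A7 was at or near background after siCtrl and bright after siDLEU1-2 in every line. Its probe lies at chr14:23242604-23242663 of hg19, on the minus strand, and is assigned to the transcript NM_001126106 without an exon being named. Its log2 level in HSC-3, KON, and Ca9-22 was -3.85, -2.41, and -4.39 after siCtrl, and 4.29, 2.80, and 3.06 after siDLEU1-2. All siDLEU1-2 arrays were above all siCtrl arrays, and of the siCtrl arrays KON alone was well above background. In processed signal, the siCtrl arrays read 15.1, 48.6, and 12.0, and the siDLEU1-2 arrays read 3926, 1708, and 2032. The line with the brightest siCtrl signal, KON, thus had the dimmest signal after siDLEU1-2. HSC-3 thus had a log2 fold change of 8.14, Ca9-22 of 7.45, and KON of 5.21, and the mean was 6.93 ± 1.53 (SD, n = 3 cell lines).

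The siCtrl side of SLC7A7 was dim, and the size of its difference depended on how background was handled, while its direction did not. Against the lowest signal counted as well above background on the array, SLC7A7 was at least 234-fold higher in HSC-3 and at least 90.8-fold higher in Ca9-22. In KON, where both arrays measured it, the fold change was 37.0. With normexp background correction, which shrinks differences of dim probes, SLC7A7 was 54.4-fold higher in HSC-3, 28.0-fold in Ca9-22, and 15.9-fold in KON, and the mean log2 fold change was 4.85. With 1 line left out, the mean was 6.33 to 7.79. The SLC7A7 probe is 1 spot per array, so no second probe or spot bears on its value.

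**Figure D1:**
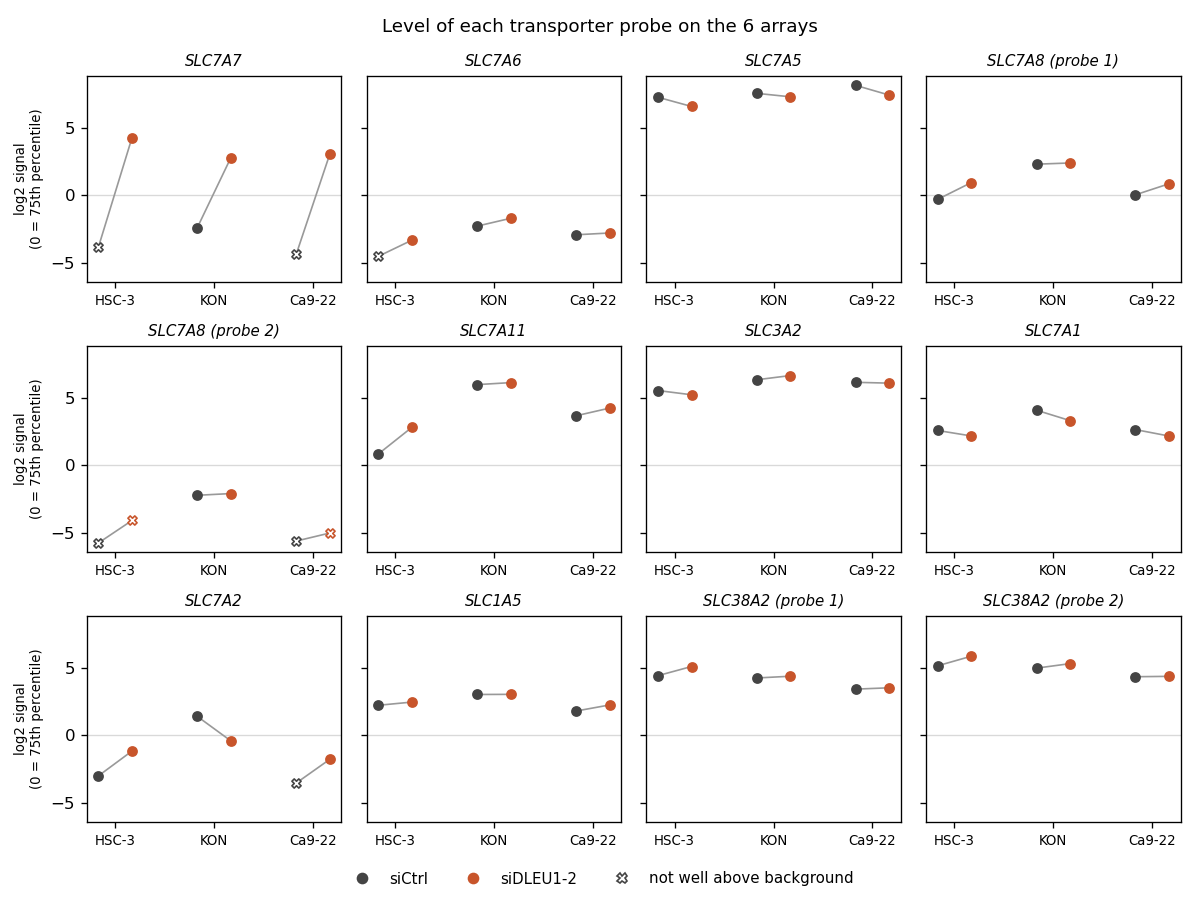
Log2 processed signal of the 12 transporter probes (y axis, 0 is the 75th percentile of the array) in HSC-3, KON, and Ca9-22 (x axis) after siCtrl (dark points) and siDLEU1-2 (orange points), 1 array per point, with open crosses where the probe was not well above background. SLC7A7 goes from between -4.39 and -2.41 to between 2.80 and 4.29, while the lines connecting the other probes are shorter, and the height of a probe says nothing about another probe.

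The other transporters did not share a change of that kind. By limma, 0 of the 10 other transporter probes were called at an adjusted p below 0.05, beside 3.97% of all tested probes called higher and 4.52% called lower. At an unadjusted p below 0.05, limma gave 4 of 10, those of SLC7A1, SLC7A5, SLC7A6, and SLC7A8, and 29.5% of all tested probes. This count fell to 1 without HSC-3 or without Ca9-22, and to 2 when centered on the median or without the filter on dim probes. With the methods' t-test the count was 0 of 10 at either level. Over 2-fold the same way in all 3 lines were 0 of the 10, where 2.08% of all tested probes were higher and 2.08% lower. SLC7A7 passed that threshold, which its selection had fixed. As to sign, 6 of the 10 probes were higher in all 3 lines, 2 were lower in all 3, and 2 were mixed, while 26.8% of all tested probes were higher and 26.7% lower in all 3. The 6 became 3 with each array centered on its median, 4 with quantile normalization, and 5 with normexp or with the percentile over detected probes, and the 2 lower probes stayed at 2. The median of the mean log2 fold changes was 0.33 over the 10 probes and 0.0069 over all tested probes.

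SLC7A6, the light chain closest to SLC7A7 in what it carries, was dim throughout. Its probe lies at chr16:68334665-68334724 of hg19. Its log2 level was -4.54, -2.29, and -2.94 after siCtrl in HSC-3, KON, and Ca9-22, and -3.34, -1.71, and -2.80 after siDLEU1-2. HSC-3 was lower than the other lines after either siRNA, and the groups overlapped. The mean log2 fold change was 0.64 ± 0.54 (SD, n = 3 cell lines; limma, adjusted p = 0.165), with a 95% confidence interval of 0.0081 to 1.27. In HSC-3 the siCtrl array was not well above background, and SLC7A6 was at least 1.19-fold higher there after siDLEU1-2. The mean fell to 0.32 when dim values were set to the lowest signal well above background, to 0.20 with normexp, and to 0.36 without HSC-3.

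SLC3A2, the heavy chain that all these light chains need, had a mean difference near 0. Its probe lies at chr11:62652689-62652748 of hg19. The log2 level was 5.55, 6.35, and 6.16 after siCtrl in HSC-3, KON, and Ca9-22, and 5.24, 6.67, and 6.10 after siDLEU1-2. KON was higher and the other lines were lower after siDLEU1-2, and the groups overlapped. The mean log2 fold change was -0.02 ± 0.32 (SD, n = 3 cell lines; limma, adjusted p = 0.953), and the 95% confidence interval was -0.48 to 0.44.

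SLC7A5 and SLC7A8, which carry large neutral amino acids, had mean differences of opposite sign, and neither passed the test. Their probes lie at chr16:87863907-87863966 and chr14:23594654-23594713 of hg19. SLC7A5 had log2 levels of 7.28, 7.57, and 8.16 after siCtrl in HSC-3, KON, and Ca9-22, and of 6.60, 7.31, and 7.44 after siDLEU1-2. Each line was lower after siDLEU1-2, Ca9-22 was the brightest under either siRNA, and the groups overlapped. Its mean log2 fold change was -0.55 ± 0.26 (SD, n = 3 cell lines; limma, adjusted p = 0.106), with a 95% confidence interval of -0.98 to -0.13. SLC7A8 read -0.31, 2.31, and 0.03 after siCtrl, and 0.94, 2.40, and 0.85 after siDLEU1-2. Its groups overlapped through KON, which was high on both arrays and differed by a log2 fold change of 0.09, against 1.25 in HSC-3 and 0.82 in Ca9-22. The mean was 0.72 ± 0.58 (SD, n = 3 cell lines; limma, adjusted p = 0.15). The second SLC7A8 probe was well above background on the KON arrays alone, at -2.23 and -2.10, and read between -5.77 and -4.10 on the others.

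SLC7A11, the cystine and glutamate exchanger, differed most between lines. Its probe lies at chr4:139085433-139085492 of hg19. Its log2 level was 0.83, 5.99, and 3.67 after siCtrl in HSC-3, KON, and Ca9-22, and 2.81, 6.14, and 4.25 after siDLEU1-2. HSC-3 was lowest and KON highest under either siRNA, and the groups overlapped. HSC-3 had the largest log2 fold change, 1.98, against 0.57 in Ca9-22 and 0.15 in KON, and the mean was 0.90 ± 0.96 (SD, n = 3 cell lines; limma, adjusted p = 0.207). Without HSC-3 the mean was 0.36.

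The cationic amino acid carriers SLC7A1 and SLC7A2 gave different patterns. SLC7A1, with a probe at chr13:30084093-30084152 of hg19, read 2.58, 4.09, and 2.65 after siCtrl in HSC-3, KON, and Ca9-22, and 2.18, 3.32, and 2.17 after siDLEU1-2. It was lower in every line, although the groups overlapped because KON was the highest under either siRNA. The mean log2 fold change was -0.55 ± 0.19 (SD, n = 3 cell lines), with a 95% confidence interval of -0.95 to -0.16 and an adjusted p of 0.0912 from limma. SLC7A2 had differences of opposite sign between lines. It read -3.02, 1.40, and -3.55 after siCtrl, and -1.17, -0.42, and -1.78 after siDLEU1-2, so KON had the highest level under either siRNA. The difference between KON and the other lines was smaller after siDLEU1-2. KON had a log2 fold change of -1.82, HSC-3 one of 1.85, and Ca9-22 one of 1.77, where the siCtrl array was not well above background and the bound was at least 3.16-fold higher. The mean was 0.60 ± 2.10 (SD, n = 3 cell lines; limma, adjusted p = 0.665). With normexp, the log2 fold changes were 0.83, -1.51, and 0.69.

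SLC1A5 and SLC38A2, which bring in glutamine, gave small mean differences. SLC1A5, with a probe at chr19:47278899-47278958 of hg19, read 2.23, 3.03, and 1.80 after siCtrl in HSC-3, KON, and Ca9-22, and 2.46, 3.04, and 2.25 after siDLEU1-2. The groups overlapped, and the mean log2 fold change was 0.23 ± 0.22 (SD, n = 3 cell lines; limma, adjusted p = 0.378). The 95% confidence interval was -0.17 to 0.64. The SLC38A2 probes, at chr12:46754625-46754684 and chr12:46752710-46752769, gave similar values, with a mean log2 fold change of 0.30 ± 0.33 and 0.36 ± 0.34 (SD, n = 3 cell lines; limma, adjusted p = 0.331 and 0.273). On both probes HSC-3 had the largest difference, 0.68 and 0.71, against 0.03 to 0.34 in KON and Ca9-22.

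**Figure D2:**
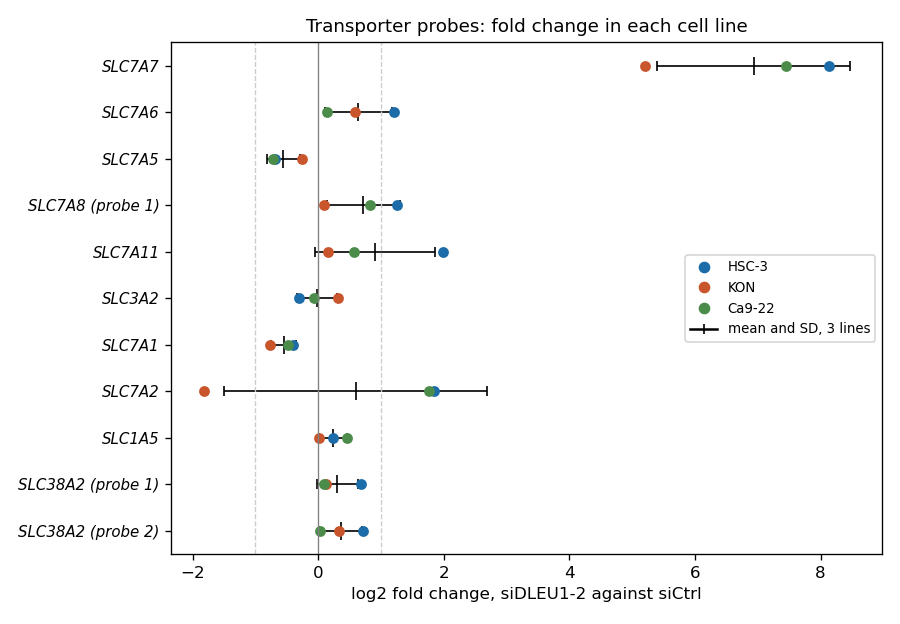
Log2 fold change, siDLEU1-2 against siCtrl (x axis), of the 11 tested transporter probes (y axis) in each cell line (colored points), with the mean and SD over the 3 lines (bar) and dashed lines at a 2-fold change. SLC7A7 lies between 5.21 and 8.14 and no other probe is past the dashed lines in the same direction in all 3 lines, while SLC7A2 lies at -1.82 in KON and at 1.77 and 1.85 in the other lines.

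The levels of many of these transporters differed between cell lines. With the siRNA as a term in limma and p-values adjusted over all probes and all 3 pairs of lines, 6 of the 10 probes other than SLC7A7 differed between HSC-3 and KON, 5 between HSC-3 and Ca9-22, and 5 between KON and Ca9-22. Among all tested probes these shares were 36.0%, 36.1%, and 34.0%. No line had a replicate culture under the same siRNA. The p-values between lines therefore rest on how the siRNA effect varied over the lines, not on the spread of cultures of a line. Where the filter on dim probes was dropped, 8 of 33 comparisons passed in place of 16 of 30. SLC7A11 was the 1 gene for which all 3 pairs passed. It was lower in HSC-3 than in KON by a log2 difference of -4.24 (adjusted p = 0.0080 from limma) and lower in HSC-3 than in Ca9-22 by -2.14 (adjusted p = 0.0288). Between KON and Ca9-22 the difference was 2.10 (adjusted p = 0.0299). After siCtrl its level spanned a 35.8-fold range over the lines.

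KON was the line with the higher level for several of these genes. The log2 difference of SLC7A8 was -2.04 for HSC-3 against KON (adjusted p = 0.0135 from limma) and 1.91 for KON against Ca9-22 (adjusted p = 0.0152). Between HSC-3 and Ca9-22 it was -0.13 (adjusted p = 0.772). SLC7A1 had the same order, with -1.32 for HSC-3 against KON (adjusted p = 0.0111) and 1.29 for KON against Ca9-22 (adjusted p = 0.0116). SLC1A5 was also higher in KON than in Ca9-22, by 1.01 (adjusted p = 0.020), and than in HSC-3, with a difference of -0.69 (adjusted p = 0.0485). SLC7A6 differed by -1.94 between HSC-3 and KON (adjusted p = 0.0131) and by -1.07 between HSC-3 and Ca9-22 (adjusted p = 0.0485), with an HSC-3 siCtrl value not well above background. With dim values at the lowest signal well above background, these became -1.46 (adjusted p = 0.0080) and -0.59 (adjusted p = 0.0680), and the latter was no longer called. The difference of SLC7A6 between KON and Ca9-22, at 0.87, was called there (limma, adjusted p = 0.0262) but not in the main fit (adjusted p = 0.0801). SLC3A2 passed for HSC-3 against KON alone, at -1.11 (adjusted p = 0.0215). SLC38A2 had the other order, being lowest in Ca9-22, with 1.29 and 1.15 for HSC-3 against Ca9-22 on its probes (adjusted p = 0.0163 and 0.0216). SLC7A5 passed for HSC-3 against Ca9-22, at -0.86 (adjusted p = 0.0321). For SLC7A2 no pair passed, and the largest difference was 3.16 between KON and Ca9-22 (adjusted p = 0.0650), where the siCtrl value of Ca9-22 was dim.

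The wider set of amino acid transporters was examined next. Of 35 further genes, which include other members of the SLC1, SLC6, SLC36, SLC38, and SLC43 families and carriers of the lysosome and mitochondrion, 16 had a tested probe. Their 24 probes gave 0 calls in limma, against 8.49% of all tested probes, and 10 at an unadjusted p below 0.05, against 29.5%. With the methods' t-test 0 passed at either level, while 1374 of all 19956 probes had an unadjusted p below 0.05. The median of their mean log2 fold changes was 0.25. The lowest adjusted p was that of SLC6A6, a taurine carrier, with a mean log2 fold change of 0.73 ± 0.22 on 1 probe (SD, n = 3 cell lines; limma, adjusted p = 0.0584) and of -0.07 ± 0.42 on the other. The glycine carrier SLC6A9 had 0.89 ± 0.59 and 0.85 ± 0.61 on its probes. SLC6A6 and SLC6A9 were picked out after their values were seen.

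Among genes that use arginine or make polyamines, 4 of 24 tested probes rose and 0 fell by limma, where 3.97% of all tested probes were called higher and 4.52% lower. OAT, the mitochondrial enzyme that turns ornithine into glutamate semialdehyde, rose in log2 level from 4.34, 4.81, and 3.93 to 6.39, 5.94, and 5.96 in HSC-3, KON, and Ca9-22, and its groups did not overlap. Its mean log2 fold change was 1.73 ± 0.53 (SD, n = 3 cell lines; limma, adjusted p = 0.0306). DDAH1, which breaks down methylated arginines, rose by 1.73 ± 0.61 (adjusted p = 0.0341) and the related DDAH2 by 0.85 ± 0.21 (adjusted p = 0.0450, and 0.0560 when centered on the median). SMOX, which oxidizes spermine, rose by 1.71 ± 0.45 (adjusted p = 0.0282). OAT, DDAH1, and SMOX were over 2-fold higher in all 3 lines. The arginase ARG2 was lower in each line, at -0.83, -2.24, and -0.74, and was named after its values were seen, since it did not pass the test (adjusted p = 0.0909). AZIN1, also named after its values were seen, was lower in each line at -0.55, -1.64, and -1.59 (limma, adjusted p = 0.0583). Of the tested probes of this list, 11 were higher in all 3 lines, 2 were lower, and 11 were mixed. The median of the list was 0.29. Without HSC-3 or without KON, none of the probes of the arginine, glutamine, and mTORC1 lists was called, and without Ca9-22 SMOX alone was. Without the cell line as a replicate block, without the filter on dim probes, and with the methods' t-test, 0 probes of these lists were called, with an adjusted p from limma of 0.288 for OAT, 0.485 for DDAH1, and 0.872 for SMOX without the block.

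Among genes of glutamine and cysteine metabolism, 1 of 18 tested probes rose and 1 fell, which is 11.1% called and close to the 8.49% of all tested probes. GLUL, glutamine synthetase, fell by 1.07 ± 0.20 on the log2 scale (SD, n = 3 cell lines; limma, adjusted p = 0.0310). ASNS, which makes asparagine with glutamine as the nitrogen donor, rose by 1.02 ± 0.35 (adjusted p = 0.0464, and 0.0570 when centered on the median). CTH, which makes cysteine from cystathionine, was over 2-fold higher in all 3 lines without passing the test (adjusted p = 0.0962). HSC-3 stood at a log2 fold change of 6.43 against 2.19 in KON and 1.84 in Ca9-22. Without HSC-3 the mean was 2.02, also without a call (limma, adjusted p = 0.0807). The processed signal of CTH in HSC-3 went from 565 to 45055. CHAC1, which degrades glutathione and was named after its values were seen, was likewise highest in HSC-3, with log2 fold changes of 3.11, 0.75, and 0.37 in HSC-3, KON, and Ca9-22 on the probe that was well above background on all 6 arrays. HSC-3 was also the line with the largest difference for SLC7A11, SLC38A2, and the tested SLC7A8 probe. That the fold changes of these genes differ between lines was not tested, because each line has 1 array per siRNA.

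Among genes through which amino acids act on the growth kinase mTORC1, 3 of 38 tested probes rose and 1 fell, which is 10.5% called and close to the 8.49% of all tested probes. Of the 3, 2 are probes of RHEB. RHEB, the GTPase that activates mTORC1, rose by 1.10 ± 0.21 on the log2 scale (SD, n = 3 cell lines; limma, adjusted p = 0.0306) on the probe of its transcript. The second RHEB probe rose by 0.69 ± 0.05 (adjusted p = 0.0492), and the files place it on the strand opposite to the first, so it may not measure the same RNA. Its mean was 0.36 with normexp (limma, adjusted p = 0.0863), and its call was also lost with quantile normalization (adjusted p = 0.0510) and under both other centerings (adjusted p = 0.0591 and 0.0542). FNIP2, a partner of folliculin, rose by 1.33 ± 0.57 (adjusted p = 0.0486), a call lost with quantile normalization (adjusted p = 0.0517) and with the percentile over detected probes (adjusted p = 0.0538). WDR59, a subunit of the GATOR2 complex, fell by 1.17 ± 0.14 (adjusted p = 0.0266). The median of the list was -0.02.

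**Figure D3:**
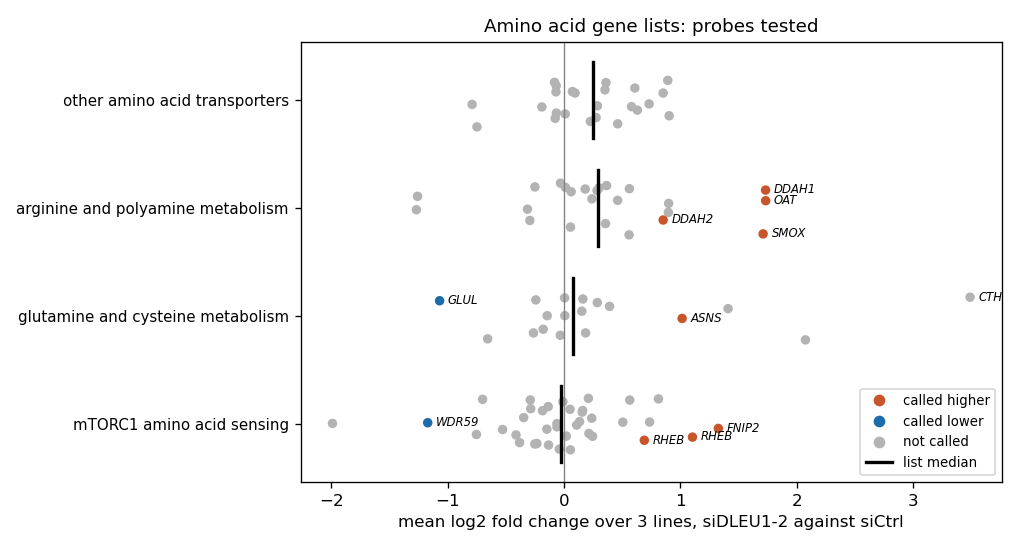
Mean log2 fold change over the 3 lines, siDLEU1-2 against siCtrl (x axis), of each tested probe in the 4 lists of genes linked to amino acids (y axis, vertical jitter only), with probes called higher in orange, called lower in blue, and the list median as a bar. None of the 24 other transporter probes is called, 4 of the 24 probes for arginine and polyamines are called higher, and CTH lies farthest to the right at 3.49 without being called.

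SLC7A7 was next set against the genes beside it. Within 200 kb of its probe on chromosome 14, 13 probes of 10 genes were tested. limma called 0 of the 13, against 8.49% of all tested probes, and at an unadjusted p below 0.05 it gave 1, against 29.5% of all. With the methods' t-test 0 of the 13 passed at either level. The mean log2 fold changes ran from -0.26 to 0.46. The nearest probe, 2.53 kb away on the opposite strand, belonged to OXA1L, which inserts proteins into the inner mitochondrial membrane. OXA1L read 5.08, 4.15, and 3.17 after siCtrl in HSC-3, KON, and Ca9-22, and 4.99, 3.49, and 3.14 after siDLEU1-2. Its groups overlapped, and its mean log2 fold change was -0.26 ± 0.34 (SD, n = 3 cell lines; limma, adjusted p = 0.400). MRPL52, a mitochondrial ribosomal protein gene 60.8 kb away, had the highest mean, 0.46 ± 0.27 (adjusted p = 0.154). MMP14, a membrane-bound matrix metalloproteinase 73.1 kb away, had log2 fold changes of 0.45, -0.38, and 1.08.

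**Figure D4:**
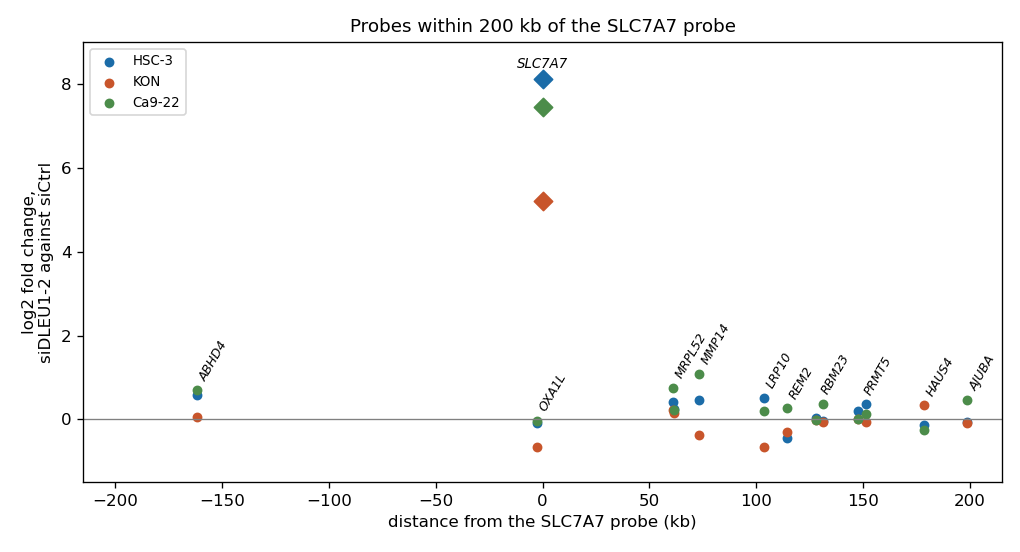
Log2 fold change, siDLEU1-2 against siCtrl (y axis), of the SLC7A7 probe (diamonds) and of the 13 tested probes within 200 kb (circles) by their distance in kb (x axis), with each line in its own color. The neighbors stay between -0.66 and 1.08 in every line, while SLC7A7 stands at 5.21 to 8.14.

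The promoters of the transporters were searched for the cores of elements that answer to amino acid shortage or oxidative stress, and for the E-box. Genes of the shortage and stress responses are among the lists above. RefSeq gave 17 start sites for the 10 genes on GRCh38.p14, each with 250 bases before and 50 after the start, out of 35116 in all. The letters TGATGNAA, the core of the C/EBP-ATF response element, were found on either strand in 3 of the 17 and in 3.62% of all promoters. They were in none of the 3 start sites of SLC7A7. TGACNNNGC, the core of the antioxidant response element, was in 6 of 17 against 13.35% of all, and the E-box CACGTG, which is the same on both strands, in 4 of 17 against 7.26%. The windows of 30 bases below show the C/EBP-ATF matches and the matches of SLC7A7, on the strand of the gene and with the match in capitals, beside genes whose fold changes are given above.
SLC1A5, C/EBP-ATF core, chr19:46784893-46784922, minus strand: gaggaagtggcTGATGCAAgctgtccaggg
SLC3A2, C/EBP-ATF core read on the opposite strand, chr11:62881719-62881748, plus strand: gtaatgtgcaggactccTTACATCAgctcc
SLC7A1, C/EBP-ATF core, chr13:29595663-29595692, minus strand: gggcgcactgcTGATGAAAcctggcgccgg
SLC7A7, antioxidant core, chr14:22819860-22819889, minus strand: cctctgggtcTGACCAGGCagtcccagctc
SLC7A7, E-box, chr14:22816079-22816108, minus strand: agaatgaaaaggCACGTGggtctggtgggg
A match of letters is a description of the window and does not show that a factor binds there. The genes with a C/EBP-ATF match, SLC1A5, SLC3A2, and SLC7A1, had mean log2 fold changes of 0.23, -0.02, and -0.55, and none was called.

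Among tested probes with a gene symbol, those whose level followed SLC7A7 most closely over the 6 arrays were PLEKHB2, METRNL, OAT, BTN2A1, and SPRY2. Their Pearson's r was 0.996, 0.994, 0.992, 0.990, and 0.990. The filter on names also left out symbols whose first letters resemble those of sequence identifiers, so such genes were not ranked. These arrays share lines and siRNAs, so a gene that differs between siRNAs and little between lines has a high r by its pattern alone. METRNL, a secreted protein, came closest in size, with log2 levels of 1.39, 1.87, and 1.41 after siCtrl in HSC-3, KON, and Ca9-22, and 4.33, 3.54, and 3.998 after siDLEU1-2. As for SLC7A7, KON was highest after siCtrl and lowest after siDLEU1-2. PLEKHB2, BTN2A1, and SPRY2, an inhibitor of growth factor signaling, had mean log2 fold changes of 0.73, 0.53, and 0.82, far smaller than that of SLC7A7. Closeness was also ranked with the median of each array as its center, and with the percentile taken over detected probes. In each case 3 of these 5 genes stayed in a list of closest probes longer than 5, and the others fell outside it. Among the transporters, r with SLC7A7 ran from -0.70 for SLC7A5 to 0.44 for SLC38A2.

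**Figure D5:**
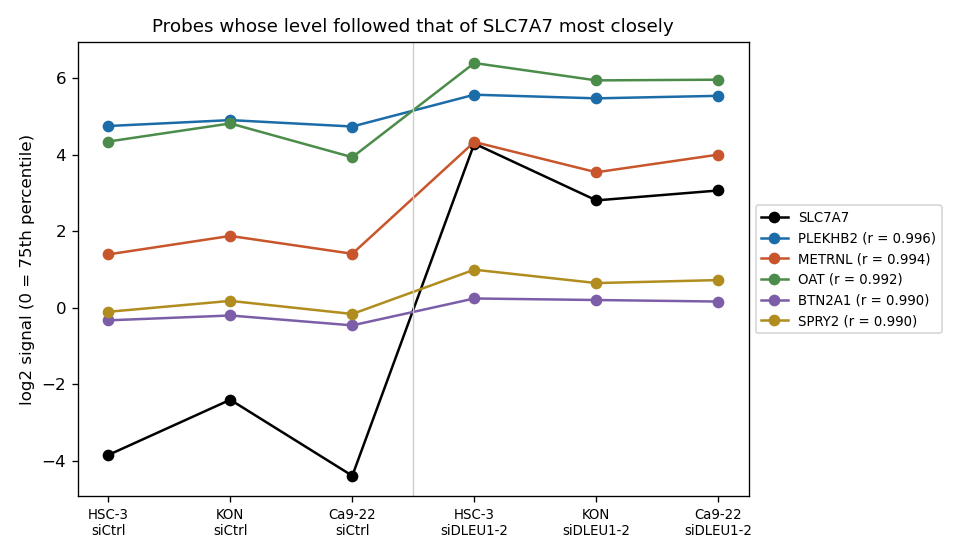
Log2 processed signal (y axis, 0 is the 75th percentile of the array) of SLC7A7 and of the 5 probes closest to it by Pearson's r on the 6 arrays (x axis). The 5 were ranked among tested probes with a gene symbol, and siCtrl is on the left and siDLEU1-2 on the right. All 6 probes are higher on each siDLEU1-2 array than on any siCtrl array, with mean log2 fold changes from 0.53 for BTN2A1 to 6.93 for SLC7A7, and heights are not comparable between probes.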

How the data were processed

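Total RNA (100 ng) of 6 cultures was labeled with Cy3 and hybridized to 1 Agilent slide. The files that the authors deposited come from Feature Extraction 10.7.3.1, and their processed signal is an intensity on a linear scale after background subtraction. They also deposited a series table with the same intensity, which differed by at most 0.497%. The normalization of the study is not given in the sources used here. Probe coordinates are those of the files (hg19).

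From the deposited intensity, log2 values were taken and the 75th percentile of each array was subtracted. Control and outlier spots were left out, and 55 probes that had lost every spot on an array were dropped. A probe was taken as well above background if 50% or more of its spots were, which held for 18097 probes on all 6 arrays. No spot was saturated. limma 3.58.1 in R 4.3.3 (lmFit, eBayes) was fitted with siRNA and cell line as terms, with Benjamini-Hochberg adjustment over 19956 probes. The lines pair the arrays, and deviations from the siRNA means correlated at 0.83, 0.81, and 0.82 within HSC-3, KON, and Ca9-22. The fit was tested on simulated data. The number of arrays limits the precision. Named were all transporter probes, DLEU1, the called or over 2-fold probes of each list, and the neighbors of SLC7A7 within 200 kb. The 5 probes closest to SLC7A7 among those with a gene symbol were also named. The members and lists were chosen with earlier results of these data known. Alternatives were normexp (offset 50), quantile normalization, other centering, the series table, other filters, a floor, each line left out, a 3-fold threshold, the probes of a gene averaged, the methods' t-test, and a fit without block.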

Additional observations from a re-analysis of the deposited data

Results flagged for a closer look

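SLC7A2 was singled out because its log2 fold changes had opposite signs between lines, at 1.85 in HSC-3 and 1.77 in Ca9-22 against -1.82 in KON, a range of 3.67. Whether the lines differ was not tested, as there is a single array for each siRNA in a line.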

How the results depend on the processing

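No transporter probe other than SLC7A7, and no neighbor of SLC7A7, was called by limma under any alternative that was run. SLC7A7 kept its direction under all that kept its probe, with a mean log2 fold change of 4.85 to 7.79. The calls of the other genes depended on pairing and on all 3 lines. Without the replicate block, that is without the pairing by cell line, limma called 0 probes higher, 0 lower, and 0 of the lists (1357 of all probes and 0 of the 10 transporter probes at an unadjusted p below 0.05, against 5895 and 4 with it). The methods' t-test also called 0, 0, and 0 (1374 unadjusted), as did limma without a filter on dim probes (0, 0, and 0). With 1 line left out, the calls were 0 to 169 higher, 0 to 152 lower, and 0 to 1 of the 10 in the lists. Between lines, 8 of 33 comparisons passed without the filter, and 4 to 5 of 10 with a line left out, when 1 pair is left. Over 2-fold the same way were 0 of 8 transporter probes when all 6 arrays had to be well above background, which drops SLC7A7, and 1 to 2 with a line left out, SLC7A2 being added without KON. Of the 5 genes most like SLC7A7, 3 remained in the longer list of closest probes under centering on the median. On the percentile of detected probes 3 remained in it. With 1 line left out, SLC3A2 ran from -0.19 to 0.13 and SLC7A2 from -0.029 to 1.81, the sign turning without HSC-3. Centering on the median lost the calls of DDAH2, ASNS, and the second RHEB probe, quantile normalization and the percentile of detected probes each lost FNIP2 and the second RHEB probe, and normexp lost the second RHEB probe. Over all alternatives, 61 pairs of a called probe and an alternative kept the sign and lost the call, and the same probe counts under each alternative. A block for slide was not run, since there is 1 slide.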
